A study of Homo sapiens with 6 samples.

Results

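The endoplasmic reticulum (ER) unfolded protein response was followed in 33 genes, chosen by symbol as ER stress sensors, chaperones, foldases, degradation factors and translocon subunits of the ATF6 and XBP1 arms, among 28278 gene rows measured. All 33 had a row, 32 had a count above 0 in at least 1 library, and 31 had enough counts to be tested. The cells were RKO, a long-established line grown from a human colon carcinoma of poor differentiation. Stable lines were compared by total RNA sequencing after ribosomal RNA depletion: cells with a lentiviral short hairpin RNA against TRIM21 (shTRIM21, 3 libraries) and cells with a scrambled hairpin (shControl, 3 libraries). TRIM21 is a ubiquitin ligase of the cytosol that binds antibodies. Both lines had been infected with lentivirus and, 36 h later, selected in puromycin at 5 µg/ml for 2 to 3 weeks, and no wild-type or ER-stressed cells are among the libraries. As far as the labels say, each arm was 1 hairpin or pool. The replicates were called biological but no separate infections were named, so p-values measure the spread between these libraries, which may be technical.

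TRIM21 itself had 299, 271 and 297 counts in shTRIM21 cells, against 459, 421 and 343 counts in shControl cells. Its log2 fold change was -0.54 ± 0.12 (standard error; edgeR adjusted p = 0.00424), a transcript level 31.3% lower that leaves most of it in place. Total counts ranged from 33499827 to 38051662 in shTRIM21 libraries and from 33829727 to 44466137 in shControl libraries, and ribosomal RNA rows took 16.99% to 23.5% and 14.7% to 36.9% of them. One label field names mouse tissue as the source, whereas every other label and the symbols of the genes are those of human cells. The 8 marker genes listed for the line, epithelial except for the mesenchymal VIM, were present, with summed levels of 4640 to 4881 CPM (counts scaled to a common library total) in shTRIM21 and 5974 to 6642 CPM in shControl libraries. The keratins KRT8, KRT18 and KRT19 and the mesenchymal VIM were called lower, and the epithelial cadherin CDH1 higher. Of 10 markers of secretory cells with a large ER, 5 were listed at 0 in every library (JCHAIN, TNFRSF17, AGR2, TFF3 and CPA1) and the sum was 88.4 to 101 CPM in shTRIM21 and 84.9 to 99.9 CPM in shControl libraries. Nearly all of that sum was SDC1, with 88.2, 89.7 and 100.6 CPM in shTRIM21 and 84.8, 99.7 and 86.6 CPM in shControl libraries. MZB1, MUC2, SPDEF and PRSS1 had at most 8 counts in any library and were not tested. The part of these marker differences in the results that follow was not tested.

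The ER folds secreted and membrane proteins. When unfolded proteins build up there, the sensors ATF6, IRE1 (encoded by ERN1) and PERK (encoded by EIF2AK3) are activated. ATF6 is cut to a transcription factor, IRE1 splices XBP1 messenger RNA into the form that encodes an active factor, and PERK slows translation and raises ATF4. Cleaved ATF6 acts through the ER stress response element (ERSE) of chaperone promoters, which consists of CCAAT and CCACG separated by 9 bases, and XBP1 can act there too. A related element, ERSE-II, is ATTGG and CCACG separated by 1 base. Only transcript levels were measured here, so splicing of XBP1, cleavage of ATF6 and the activity of PERK were not read.

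Because the fold changes are set beside this element further on, its matches in the members' promoters are printed. RefSeq's table (GRCh38.p14) holds the 250 bases before and 50 bases after the start of 30 of the 33 genes. PDIA3, DERL1 and DERL3 have no entry there. On either strand, 6 of the 30 genes held an ERSE, against 25 of all 27305 genes of the table (0.0916%). Each is shown from 5′ to 3′ on the strand on which CCAAT comes first, with the element's fixed letters in capitals.
HSP90B1, chr12:103930211-103930239, plus strand: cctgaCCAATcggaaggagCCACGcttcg
HSP90B1, chr12:103930316-103930344, minus strand: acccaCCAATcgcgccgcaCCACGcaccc
HSPA5, chr9:125241386-125241414, minus strand: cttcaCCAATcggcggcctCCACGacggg
PDIA6, chr2:10812848-10812876, minus strand: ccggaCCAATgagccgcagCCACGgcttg
CALR, chr19:12938379-12938407, minus strand: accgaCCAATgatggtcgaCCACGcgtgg
XBP1, chr22:28800598-28800626, minus strand: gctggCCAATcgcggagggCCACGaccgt
CRELD2, chr22:49918549-49918577, minus strand: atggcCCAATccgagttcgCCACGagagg
HSP90B1 held 2 matches, ending 176 and 71 bases before its start. The second of them and those of CALR and CRELD2 lie on the strand opposite to the gene. PDIA6 has 2 starts in the table and the match lies before the one further inside the gene, and CRELD2 shares its promoter region with ALG12. ERSE-II was found in HERPUD1, SDF2L1 and HYOU1, against 19 of all genes of the table (0.0696%), and is shown for the first 2.
HERPUD1, chr16:56932016-56932044, plus strand: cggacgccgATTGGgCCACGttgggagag
SDF2L1, chr22:21642105-21642133, minus strand: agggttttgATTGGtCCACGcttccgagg
The part CCACG alone was in 22 of the 30 genes, and in 42.1% of all genes of the table. The core of the XBP1-type element, TGACGTGG, was in HYOU1 alone among the members, against 0.927% of all genes of the table. A match is an exact string of letters and was not shown to be bound in these cells. Elements that differ in a letter were not counted. The promoter of HERPUD1 also holds CCAAT and CCACA separated by 9 bases, an ERSE but for its last letter. The 250 bases before the start follow for the members with the largest log2 fold change in each direction, HSP90B1 and HERPUD1, with the same elements in capitals. The second match of HSP90B1 reads there as CGTGG followed by ATTGG, its letters on the other strand.
HSP90B1, chr12:103930160-103930409, plus strand: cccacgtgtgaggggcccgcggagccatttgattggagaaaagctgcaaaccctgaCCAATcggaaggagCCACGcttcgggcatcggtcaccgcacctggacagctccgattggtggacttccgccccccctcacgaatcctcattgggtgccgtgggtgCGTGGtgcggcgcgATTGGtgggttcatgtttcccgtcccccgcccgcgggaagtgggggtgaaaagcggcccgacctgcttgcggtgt
HERPUD1, chr16:56931892-56932141, plus strand: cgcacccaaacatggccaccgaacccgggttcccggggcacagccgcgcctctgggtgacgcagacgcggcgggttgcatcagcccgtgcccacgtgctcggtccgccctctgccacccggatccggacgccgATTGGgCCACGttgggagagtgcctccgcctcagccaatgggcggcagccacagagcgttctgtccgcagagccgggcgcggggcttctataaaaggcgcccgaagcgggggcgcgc

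With TMM scaling, the transcripts of the members moved little and in mixed directions. Of the 31 tested genes, 3 were called higher in shTRIM21 cells (HSP90B1, PDIA6 and PDIA3), 2 were called lower (HERPUD1 and SEC61A1) and 26 were not called. That is 16.1% called, against 20.8% of all 15131 tested genes, of which 9.77% were higher and 11.0% lower, and against 25.4% of the 9524 genes that average 10 CPM or more, as all 31 do. Called means an adjusted p under 0.05 in edgeR's quasi-likelihood test. The log2 fold changes of the 31 genes ran only from -0.29 to 0.36, with 9 above 0 and 22 below (21 of them above 0 with library sizes alone, 6 with upper-quartile factors), and their median was -0.05, against 0.01 over all tested genes. Their median size without regard to sign was 0.12, against 0.16 over all tested genes. In 14 of the 31 (45.2%) the libraries of the groups did not overlap, 5 with shTRIM21 higher and 9 with shTRIM21 lower, against 37.7% of all tested genes (18.7% higher and 19.0% lower). For all 26 uncalled genes the 95% interval of the fold change lay inside 1.5-fold in either direction. These calls use TMM scaling between libraries: with library sizes alone, the median log2 fold change of all genes was 0.22, that of the members 0.16, and 1 member, HSP90B1, was called, with 13.0% of all genes called. With TMM scaling, 2 members were called without shTRIM21 replicate 2, and 3 without shTRIM21 replicate 1 or without shControl replicate 3.

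**Figure D1:**
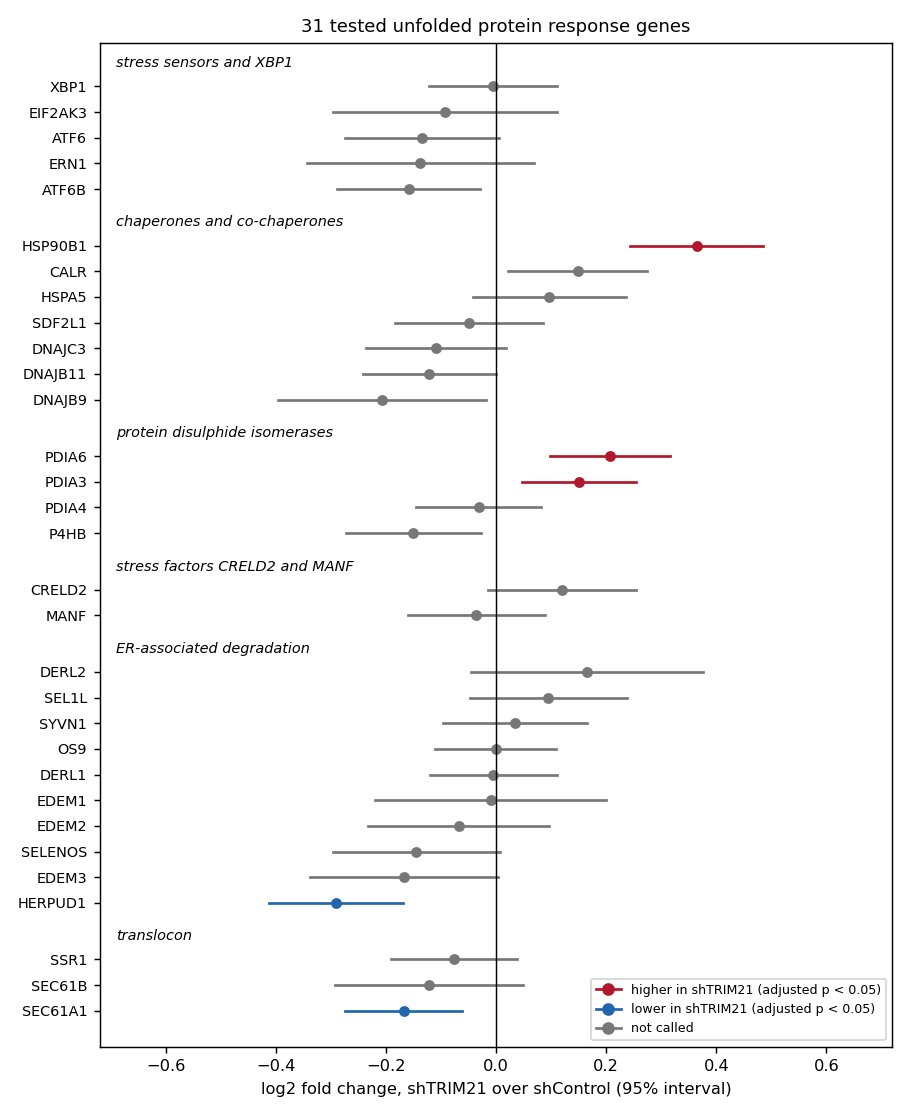
Log2 fold change of shTRIM21 over shControl cells for the 31 tested members, grouped by role, with 95% intervals from edgeR (3 libraries per group). HSP90B1, PDIA6 and PDIA3 are called higher, HERPUD1 and SEC61A1 lower, and the others lie between -0.21 and 0.17.

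Among the chaperones, HSP90B1 changed most. It encodes GRP94, the Hsp90 chaperone of the ER lumen, and lies at chr12:103930410-103947926. Its level was 1030, 1066 and 1050 CPM in shTRIM21 libraries, against 777, 841 and 827 CPM in shControl libraries. Every shTRIM21 library lay above every shControl library by a margin wider than the spread within either group. The difference was 1.29-fold, a log2 fold change of 0.36 ± 0.06 (standard error; edgeR adjusted p = 0.000391). It was called under all 14 alternative settings, with log2 fold changes of 0.31 to 0.57. HSP90B1 overlaps the row of the microRNA gene MIR3652, whose log2 fold change of 0.10 was not called (edgeR adjusted p = 0.523).

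HSPA5, which encodes BiP, the Hsp70 chaperone of the ER and the most widely used marker of this response, had 1201, 1218 and 1279 CPM in shTRIM21 libraries, against 1055, 1200 and 1206 CPM in shControl libraries. The groups overlapped, and the log2 fold change of 0.10, with a 95% interval of -0.04 to 0.24, was not called (edgeR adjusted p = 0.324). CALR, the lectin chaperone calreticulin, had 1164, 1180 and 1229 CPM in shTRIM21 libraries, against 1021, 1119 and 1085 CPM in shControl libraries. The groups did not overlap, but its log2 fold change of 0.15 ± 0.06 missed the threshold (edgeR adjusted p = 0.0900) and passed it in 4 of the 14 alternatives. CALR overlaps the row of the microRNA gene MIR6515, itself called higher with a log2 fold change of 0.38, and reads of overlapping genes may be counted together.

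None of the co-chaperones was called. DNAJB9 (ERdj4), which binds BiP and represses IRE1, had 15.1, 13.9 and 14.4 CPM in shTRIM21 libraries, against 17.9, 16.8 and 15.3 CPM in shControl libraries, with no overlap and a log2 fold change of -0.21 ± 0.09 that was not called (edgeR adjusted p = 0.113). DNAJB11 (ERdj3), a J-domain partner of BiP, was 75.3, 72.7 and 71.5 CPM in shTRIM21 libraries and 75.5, 81.3 and 82.1 CPM in shControl libraries. Its log2 fold change of -0.12 was not called either (edgeR adjusted p = 0.143). DNAJC3 (p58IPK) and SDF2L1, a cofactor of DNAJB11, had log2 fold changes of -0.11 and -0.05 with overlapping groups. HYOU1, the large Hsp70-like exchange factor of BiP, was listed at 0 in all 6 libraries. CANX, the membrane-bound partner of calreticulin, was listed at 0 in every library too, and such zeros are reported only as listed.

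The 4 protein disulphide isomerases, which form and rearrange disulphide bonds, split. PDIA6 (P5), at chr2:10783391-10837712, had 167, 169 and 168 CPM in shTRIM21 libraries, against 142, 142 and 153 CPM in shControl libraries. The shTRIM21 libraries agreed closely and all lay above the shControl libraries, a log2 fold change of 0.21 ± 0.05 (edgeR adjusted p = 0.0103). The call was lost when shTRIM21 replicate 2 was left out (edgeR adjusted p = 0.0708). PDIA3 (ERp57), which acts on glycoproteins held by calreticulin and lies at chr15:43746438-43773278, had 403, 397 and 413 CPM in shTRIM21 libraries, against 361, 362 and 369 CPM in shControl libraries. Its groups did not overlap and its log2 fold change of 0.15 ± 0.05 just passed the threshold (edgeR adjusted p = 0.0398), but leaving out any 1 of the 6 libraries ended the call.

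P4HB, protein disulphide isomerase itself and a subunit of collagen prolyl 4-hydroxylase, leaned the other way, with 1077, 1077 and 1091 CPM in shTRIM21 libraries against 1153, 1193 and 1256 CPM in shControl libraries. The groups did not overlap and the log2 fold change of -0.15 ± 0.06 missed the threshold (edgeR adjusted p = 0.0774). It passed the threshold in 2 of the 14 alternatives. PDIA4 (ERp72) had 393, 406 and 416 CPM in shTRIM21 libraries and 398, 410 and 434 CPM in shControl libraries, which overlapped, with a 95% interval of the log2 fold change of -0.15 to 0.08. PDIA6 overlaps the row of ATP6V1C2, called higher with a log2 fold change of 0.24. PDIA3 overlaps ELL3, called higher with 0.34, and shares sequence with the copy PDIA3P1, whose log2 fold change of 0.28 was not called (edgeR adjusted p = 0.158). The part of these overlaps in the members' values was not tested.

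**Figure D2:**
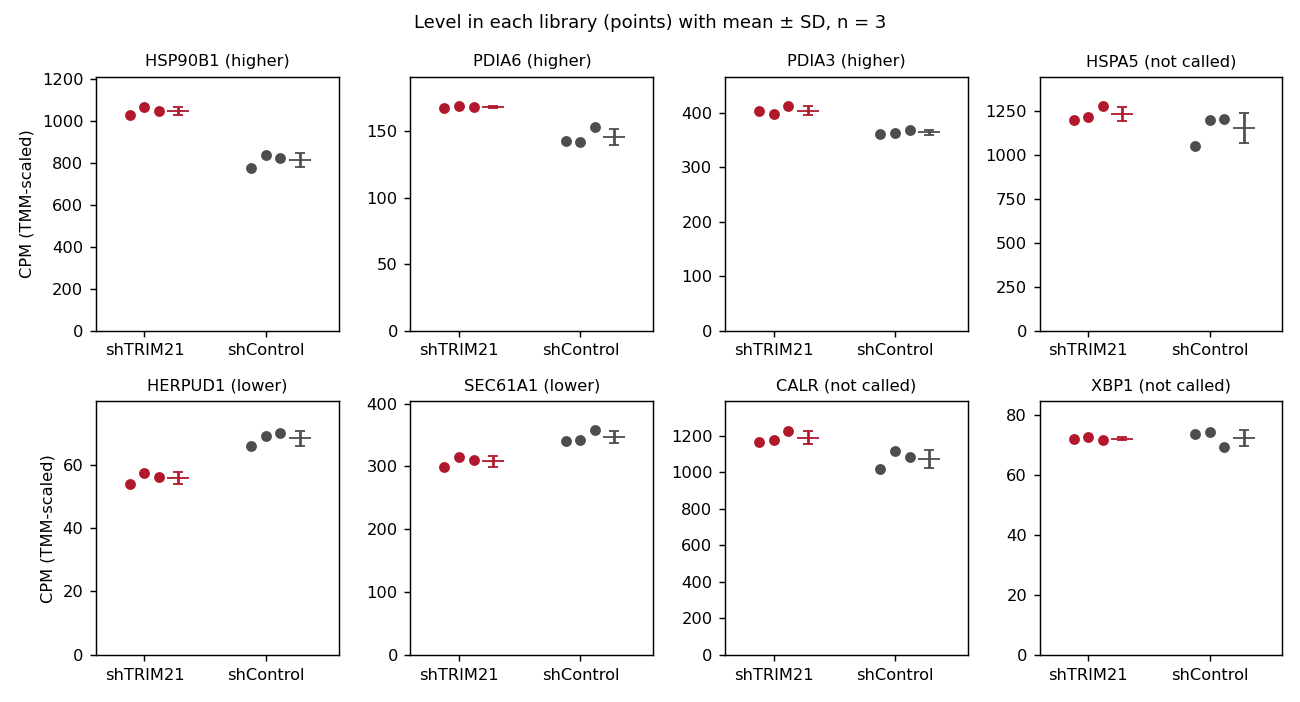
Level in CPM (TMM-scaled; y axes start at 0) of 8 members in each of the 3 shTRIM21 and 3 shControl libraries, with group means and SDs. HSP90B1, PDIA6 and PDIA3 lie higher and HERPUD1 and SEC61A1 lower in every shTRIM21 library, CALR lies higher without being called, and HSPA5 and XBP1 overlap.

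In ER-associated degradation, which retrieves misfolded proteins for the proteasome, HERPUD1 was the only member called. It encodes a membrane protein of the HRD1 ligase complex and lies at chr16:56932142-56944864. Its level was 53.8, 57.4 and 56.2 CPM in shTRIM21 libraries, against 65.8, 69.0 and 70.1 CPM in shControl libraries, a gap several times the SD within either group (1.87 and 2.24 CPM). The level was 18.3% lower, a log2 fold change of -0.29 ± 0.06 (edgeR adjusted p = 0.00238). The call held in 13 of the 14 alternatives and was lost with library sizes alone, where its log2 fold change was -0.08 against the median of 0.22 over all genes.

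The other 9 tested degradation genes were not called. SYVN1, the HRD1 ligase, and SEL1L, its adaptor, had log2 fold changes of 0.03 and 0.09 (edgeR adjusted p = 0.740 and 0.346). The mannosidase-like EDEM1, EDEM2 and EDEM3, which mark glycoproteins for degradation, had -0.01, -0.07 and -0.17, and the groups did not overlap for EDEM2 and EDEM3. The row MMP24-AS1-EDEM2, which overlaps EDEM2, averaged 15.8 CPM in shTRIM21 and 15.6 CPM in shControl cells. Its groups overlapped, with a log2 fold change of 0.01. DERL1 and DERL2, membrane proteins of the pathway, had -0.01 and 0.17. DERL2 was called only without shTRIM21 replicate 3 (edgeR adjusted p = 0.0485). SELENOS, a selenoprotein that anchors the p97 ATPase, was 26.5, 27.5 and 25.3 CPM in shTRIM21 libraries and 27.6, 29.9 and 30.1 CPM in shControl libraries, lower in every shTRIM21 library but not called (edgeR adjusted p = 0.165). The lectin OS9, at 102, 101 and 107 CPM in shTRIM21 and 103, 102 and 105 CPM in shControl libraries, had a 95% interval of the log2 fold change of -0.11 to 0.11. DERL3 had 0, 2 and 1 counts in shTRIM21 and 7, 6 and 0 counts in shControl libraries, too few to test.

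The translocon admits new proteins to the ER. SEC61A1, its pore subunit, at chr3:128051641-128071683, had 299, 316 and 309 CPM in shTRIM21 libraries, against 340, 341 and 357 CPM in shControl libraries. All shTRIM21 libraries lay below all shControl libraries, with a log2 fold change of -0.17 ± 0.05 (edgeR adjusted p = 0.0265). The call was lost without shTRIM21 replicate 1, without shTRIM21 replicate 2 and without shControl replicate 3. SEC61A1 overlaps RUVBL1, whose log2 fold change of -0.16 was not called (edgeR adjusted p = 0.0755). The small pore subunit SEC61B and the translocon-associated SSR1 had log2 fold changes of -0.12 and -0.08 and overlapping groups.

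None of the stress sensors was called, although all 5 genes of this group, XBP1 included, had a log2 fold change below 0, with a median of -0.14, which became 0.077 with library sizes alone and -0.054 without shTRIM21 replicate 1. ATF6 had 41.9, 47.5 and 42.8 CPM in shTRIM21 libraries, against 46.4, 48.7 and 50.04 CPM in shControl libraries, with overlap (log2 fold change -0.14, edgeR adjusted p = 0.163). ATF6B, its close relative, had 75.7, 72.9 and 73.6 CPM in shTRIM21 libraries, against 78.6, 89.7 and 79.8 CPM in shControl libraries, with no overlap (log2 fold change -0.16, edgeR adjusted p = 0.0789). It was called without the 2 shControl libraries richest in ribosomal RNA (log2 fold change -0.28, edgeR adjusted p = 0.0295). ERN1 and EIF2AK3 had log2 fold changes of -0.14 and -0.09 with intervals across 0. XBP1 lay at 71.96, 72.8 and 71.7 CPM in shTRIM21 libraries and 73.7, 74.3 and 69.3 CPM in shControl libraries. Its log2 fold change of -0.01 had a 95% interval of -0.12 to 0.11.

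CRELD2 and MANF, small stress-induced proteins of the ER lumen that can be secreted, were not called. CRELD2 had 35.6, 37.0 and 37.5 CPM in shTRIM21 libraries, against 33.7, 34.8 and 32.8 CPM in shControl libraries, without overlap (log2 fold change 0.12, edgeR adjusted p = 0.196). MANF had a log2 fold change of -0.04 and overlapping groups.

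**Figure D3:**
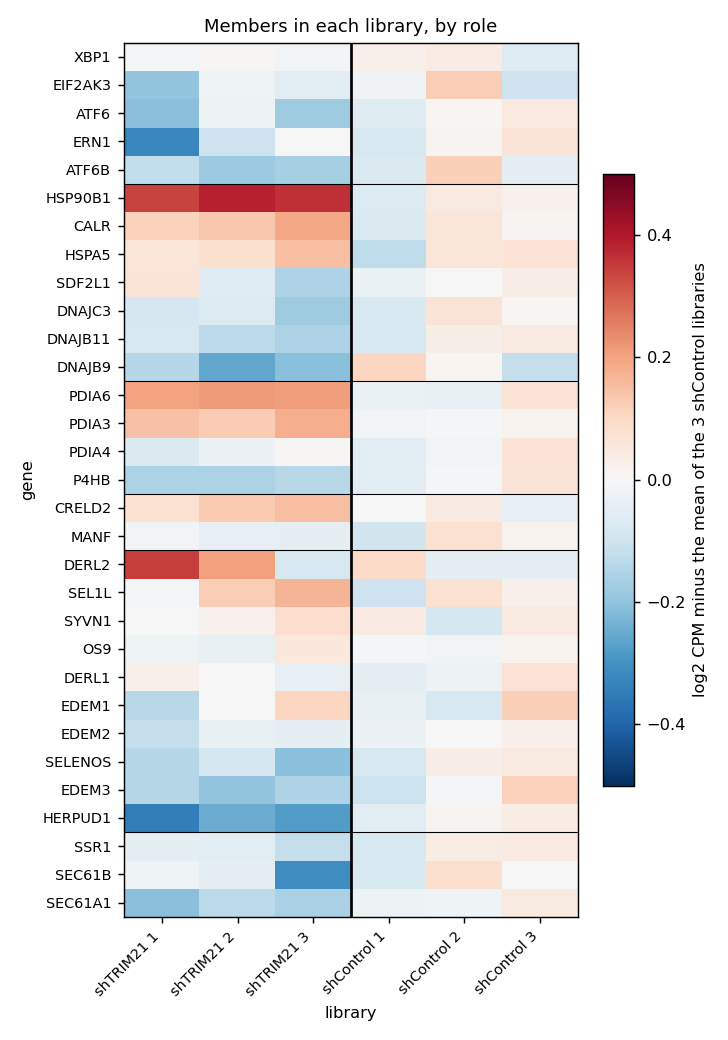
Log2 CPM of each tested member in each of the 6 libraries minus the mean of the 3 shControl libraries, with shTRIM21 libraries on the left and genes ordered by role. HSP90B1 stands out as higher and HERPUD1 as lower in all 3 shTRIM21 libraries.

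With TMM scaling, the log2 fold changes of members with an ERSE had a higher median than those of members without an exact match. HERPUD1 is counted among those without, although its promoter holds the near match given above. Near matches were not searched for in the other members. Of the 6 tested genes with an ERSE (HSP90B1, HSPA5, PDIA6, CALR, XBP1 and CRELD2), 5 had a log2 fold change above 0, 2 were called higher and none lower, and in 4 every shTRIM21 library exceeded every shControl library. Over all 15131 tested genes, 7705 had a log2 fold change above 0, 9.77% were called higher and 18.7% lay higher without overlap. The log2 fold changes of the 6 genes ran from -0.01 to 0.36 with a median of 0.13. Of the 23 tested genes with a promoter entry and no ERSE, 3 had a log2 fold change above 0, none was called higher and 2 were called lower. In 9 of these 23 every shTRIM21 library lay below every shControl library, and in none did every one lie above, against 19.0% lower and 18.7% higher without overlap over all tested genes, of which 11.0% were called lower. Their log2 fold changes ran from -0.29 to 0.17 with a median of -0.11. The sign of these medians depends on the scaling: with library sizes alone they were 0.34 with an ERSE and 0.096 without, both above 0. The median of all tested genes was then 0.22, which lies between them. Without the 2 shControl libraries richest in ribosomal RNA the members' medians were 0.076 with an ERSE and -0.15 without. The difference between the medians was 0.24. With the 3 other scalings it was 0.24 to 0.25, since a common scaling moves both sets alike. Over all 14 alternatives it ran from 0.19, without shTRIM21 replicate 3, to 0.26, without shTRIM21 replicate 2. This split was drawn up with the fold changes known and is a description without a test. PDIA3 and DERL1, the 2 tested genes with no promoter entry, had log2 fold changes of 0.15 and -0.01. HERPUD1 and SDF2L1, which hold the ERSE-II shown above, had -0.29 and -0.05.

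The members were also set against HSPA5 within each library, which needs no scaling between libraries. HSP90B1 had 85.8, 87.5 and 82.1 counts for every 100 HSPA5 counts in shTRIM21 libraries, against 73.7, 70.1 and 68.6 in shControl libraries. The groups did not overlap, and an exact two-sided permutation test gave p = 0.1, the smallest that 3 against 3 libraries allow. P4HB had 89.6, 88.4 and 85.3 counts per 100 HSPA5 counts in shTRIM21 libraries and 109, 99.4 and 104 in shControl libraries. HERPUD1 had 4.47, 4.71 and 4.40 in shTRIM21 libraries, against 6.24, 5.75 and 5.81 in shControl libraries. Of the 30 other tested members, HSP90B1 alone was higher against HSPA5 without overlap, 17 were lower without overlap, and 12 overlapped. Over all 15130 other tested genes set against HSPA5 in the same way, 8.39% were higher and 26.8% lower without overlap. HSPA5 had itself a log2 fold change of 0.10, against the members' median of -0.05, which moves every such ratio down.

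Together the members took 0.925%, 0.944% and 0.969% of the counts outside ribosomal RNA in shTRIM21 libraries, against 0.838%, 0.874% and 0.896% in shControl libraries. The groups did not overlap on this share, but how many of all genes separate in the same way was not counted. The members' summed CPM were 6918, 7016 and 7120 in shTRIM21 and 6438, 6863 and 6932 in shControl libraries, where the groups overlapped. Counts outside ribosomal RNA were 27808151 to 29100459 in shTRIM21 and 28045058 to 29011788 in shControl libraries. The TMM-scaled sizes behind CPM were 37522481 to 39169922 and 36231915 to 37746253, so an unchanged CPM can give a different share. The sum is dominated by HSPA5, HSP90B1, CALR and P4HB, which held 64.6% to 65.3% of the members' counts in shTRIM21 and 62.2% to 63.4% in shControl libraries. In these bulk libraries, fewer cells of a type and less RNA per cell cannot be told apart.

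Per kilobase of exon, CALR was the most abundant member, with 626 CPM per kilobase in shTRIM21 and 565 in shControl cells, and P4HB was next with 415 and 461. HSP90B1 followed with 366 CPM per kilobase in shTRIM21 cells, ahead of HSPA5 with 315. In shControl cells HSP90B1 had 284 and HSPA5 295 CPM per kilobase, and their ranges over libraries overlapped (271 to 293 for HSP90B1 and 270 to 309 for HSPA5). PDIA4 and PDIA3 came next, with 139 and 108 CPM per kilobase in shTRIM21 cells and 143 and 97.7 in shControl cells. The sensor genes ERN1 and EIF2AK3 were at the other end. ERN1 was lowest with 1.51 CPM per kilobase in shTRIM21 and 1.66 in shControl cells, EDEM1 had 1.98 and 1.99, and EIF2AK3 had 2.59 and 2.76.

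**Figure D4:**
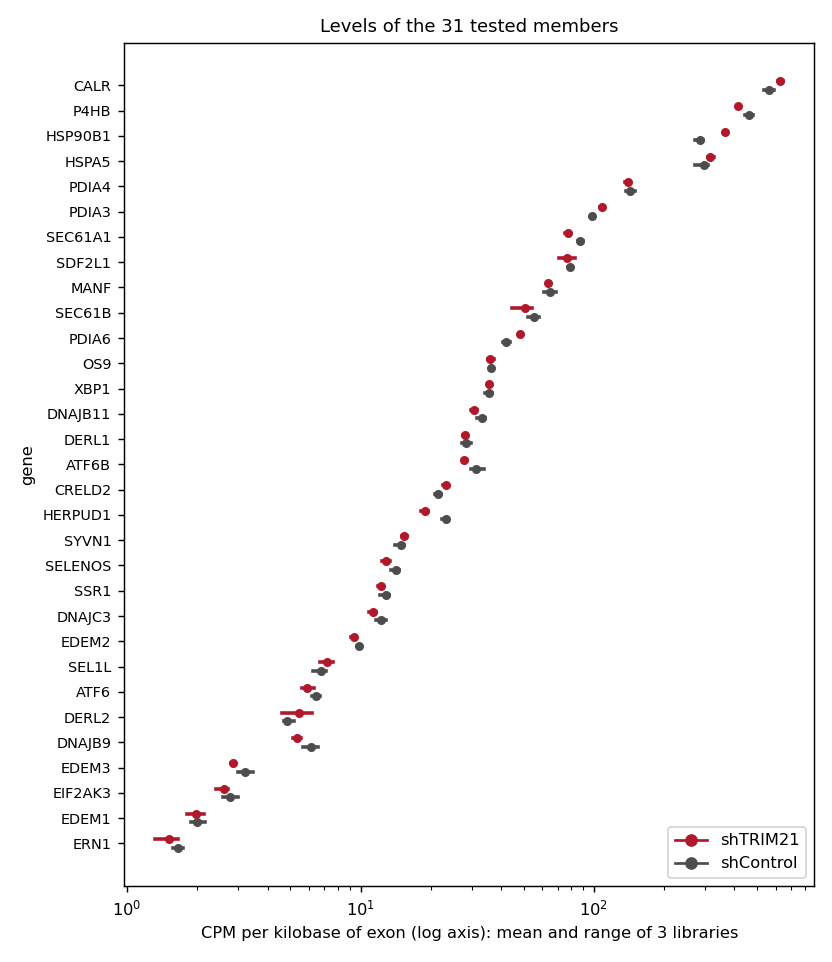
Mean level per kilobase of merged exon (CPM per kilobase, log axis) of the 31 tested members in shTRIM21 and shControl cells, with the range over 3 libraries. CALR, P4HB, HSP90B1 and HSPA5 lead in both lines, and the sensor genes ERN1 and EIF2AK3 lie near the bottom.

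Other genes of the ER and of neighbouring stress pathways were counted in the same fit. In the arm that runs from PERK to ATF4, 9 of 13 tested genes (69.2%) were called lower and none higher, against 20.8% called among all tested genes, with a median log2 fold change of -0.51. With library sizes alone 1 of them was called and the median was -0.29. ATF4, the arm's transcription factor, averaged 412 ± 14.4 CPM in shTRIM21 and 595 ± 15.1 CPM in shControl cells (SD, n = 3 each; log2 fold change -0.53, edgeR adjusted p = 6.14e-06). CHAC1, which degrades glutathione, and ASNS, asparagine synthetase, had log2 fold changes of -1.48 and -0.54 (edgeR adjusted p = 7.55e-07 and 2.80e-05). ATF4 also answers to amino acid and haem shortage, and the kinase involved was not measured.

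In these lists, called genes are read against the 9.77% called higher and 11.0% called lower of all tested genes. Among 20 further foldases and prolyl isomerases, 5 were called higher and 2 lower, and the 7 became 3 without shTRIM21 replicate 2 or without the 2 shControl libraries. ERO1A, the oxidase that recharges protein disulphide isomerase, averaged 89.4 ± 3.00 CPM in shTRIM21 and 57.7 ± 3.82 CPM in shControl cells (SD, n = 3 each; log2 fold change 0.63, edgeR adjusted p = 5.19e-06), while the prolyl isomerase FKBP14 had -0.61 (edgeR adjusted p = 0.000489). Among 14 genes of the calnexin cycle and N-glycan transfer, 3 were higher and 2 lower, and the 5 became 3 without shTRIM21 replicate 1 or 2 and 2 with library sizes alone. GANAB and PRKCSH, the 2 subunits of the glucosidase that admits glycoproteins to calreticulin, had log2 fold changes of 0.37 and 0.26 (edgeR adjusted p = 0.000145 and 0.00332), and OSTC, an oligosaccharyltransferase subunit, had -0.33 (edgeR adjusted p = 0.00413).

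Of 23 further degradation genes, 7 were called lower and none higher, among them AUP1 and the ubiquitin-conjugating enzyme it recruits, UBE2G2, with log2 fold changes of -0.31 and -0.26 (edgeR adjusted p = 0.00135 and 0.00423). The 7 became 4 without any 1 shTRIM21 library, without shControl replicate 2 or with upper-quartile factors, and 0 with library sizes alone. Of 22 further translocon and signal peptidase genes, 2 were higher and 6 lower, against 20.8% called in either direction over all tested genes. The 8 became 3 without shTRIM21 replicate 2 or without the 2 shControl libraries, 4 without shControl replicate 1, 5 without shControl replicate 3 and 2 with library sizes alone. The signal peptidase SEC11A had 0.32 and the translocon-associated SSR3 -0.26 (edgeR adjusted p = 0.00349 and 0.00429). Of 17 ER export genes, 2 were higher and 5 lower, and SAR1A, the GTPase of the export coat, averaged 86.7 ± 2.49 CPM in shTRIM21 and 53.4 ± 1.63 CPM in shControl cells (SD, n = 3 each; log2 fold change 0.70, edgeR adjusted p = 6.34e-07). The 7 became 2 without shTRIM21 replicate 2 or with library sizes alone, 3 without the 2 shControl libraries and 4 with upper-quartile factors. Among 11 sensor proteases and IRE1 neighbours, WFS1 was higher (0.23, edgeR adjusted p = 0.0240) and CREB3L2, a relative of ATF6, lower (-0.35, edgeR adjusted p = 0.000825). Of 9 ER-phagy receptors only ATL3 was called, at -0.44 (edgeR adjusted p = 0.000144), with 2 called without shControl replicate 1 or 2 and 0 with library sizes alone. Of 15 cytosolic heat shock genes, HSPA4 was called higher (0.16, edgeR adjusted p = 0.0291) and CHORDC1 lower (-0.30, edgeR adjusted p = 0.0321), the second with overlapping groups. The calls of the foldase TMX3 (log2 fold change 0.34) and the coat subunit SEC24A (-0.32) were lost without shTRIM21 replicate 2, that of WFS1 without replicate 1 or 2 of either group, that of CHORDC1 without shTRIM21 replicate 2 or 3 or shControl replicate 2, and that of HSPA4 without any 1 of the 6.

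**Figure D5:**
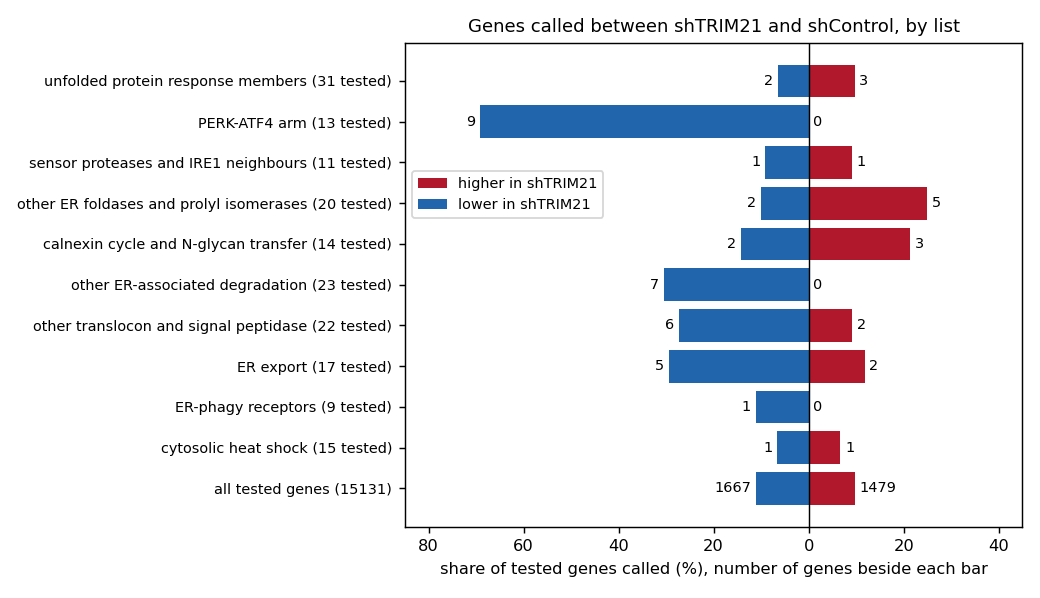
Share of tested genes (%) called higher (right) and lower (left) in shTRIM21 than in shControl cells (edgeR adjusted p under 0.05), with the number of genes beside each bar, for the members, 9 other ER and stress lists and all tested genes. The PERK-ATF4 list has 9 of 13 genes called lower, while the members have 3 higher and 2 lower of 31.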

How the data were processed

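Per the files themselves, the authors deposited raw read counts, as 1 table for each library with 28278 gene symbols. The submitters' processing notes name the build hg38 and the tools TopHat2, limma 3.52.2 and edgeR 3.38.1, with no role. How reads were counted, with which gene models and whether by strand, is not given in the sources used here. No library had a count for 7790 of the symbols. Groups came from the sample titles.

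Counts were analysed with R 4.3.3 and edgeR 4.0.16 (limma 3.58.1). Genes passed filterByExpr (minimum count 10, minimum total 15), libraries were scaled by TMM, and groups were compared by the quasi-likelihood F test over the 6 libraries, with Benjamini-Hochberg adjustment over 15131 genes and a threshold of 0.05. A standard error is |log2 fold change| over the root of the F statistic. CPM use TMM-scaled library sizes. Levels per kilobase use merged exons of the reference annotation. The scripts were checked on simulated counts. Alternatives were 3 other scalings, omission of ribosomal RNA rows, no filter, DESeq2 1.42.0, a replicate block and omission of libraries. No 2 libraries of a group agreed within sampling noise (chi-square per degree of freedom 4.54 to 10.1).

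Named genes are the members, TRIM21 and, in each other list, up to 3 called genes with the smallest p, of which 1 is not reported here. The members and lists were chosen with earlier results of these data known. Promoter sequences are RefSeq's (GRCh38.p14). Protein sequences were not used here.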

Additional observations from a re-analysis of the deposited data

How the results depend on the processing

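The count of called genes, 3146, became 1844 (without shTRIM21 replicate 2) to 2592 with 1 library left out, 1969 with library sizes alone and 1958 without the 2 shControl libraries richest in ribosomal RNA (chosen after seeing the data). The 5 called members became 1 with library sizes alone and 2 to 5 with 1 library left out: 1 and 1 to 3 higher, 0 and 1 to 2 lower, and 1 lower with upper-quartile factors. Their median log2 fold change was -0.0080 with upper-quartile factors, 0.16 with library sizes alone and -0.083 to -0.043 with 1 library left out. The 4 role groups with a call became 1 with library sizes alone and 2 to 4 with 1 library left out. The 48 calls in other lists became 13, 31 without the 2 shControl libraries, and 25 (without shTRIM21 replicate 2) to 38 with 1 library left out. Calls that were higher made up 47.0% with TMM, 62.1% with upper-quartile factors and 93.0% with library sizes alone, where the median of all genes was 0.22. The difference between members with and without an ERSE was 0.19 to 0.26 with 1 library left out. With library sizes alone, log2 fold changes of 21 members turned above 0: ATF6 0.075, ATF6B 0.043, ERN1 0.077, EIF2AK3 0.11, XBP1 0.20, SDF2L1 0.16, DNAJB9 0.0029, DNAJB11 0.089, DNAJC3 0.096, PDIA4 0.18, P4HB 0.063, MANF 0.17, EDEM1 0.21, EDEM2 0.14, EDEM3 0.049, DERL1 0.21, SELENOS 0.064, OS9 0.21, SEC61A1 0.045, SEC61B 0.081 and SSR1 0.13. With upper-quartile factors, XBP1 was 0.035, PDIA4 0.0094, MANF 0.0055, EDEM1 0.031, DERL1 0.036 and OS9 0.040, and without the 2 shControl libraries EDEM1 was 0.066, DERL1 0.014 and OS9 0.0067. With 1 library left out, XBP1 ran from -0.043 to 0.011, MANF from -0.083 to 0.00068, SYVN1 from -0.0092 to 0.053, EDEM1 from -0.072 to 0.050, DERL1 from -0.031 to 0.025 and OS9 from -0.031 to 0.0082. Of these genes SEC61A1 alone was called with TMM. SEC61A1 was called in 8 of the 14 alternatives, PDIA6 in 12 and PDIA3 in 4. DESeq2 and the omission of ribosomal RNA rows each called 7 members, 4 higher and 3 lower. Same-numbered libraries did not deviate together (correlations -0.0131, 0.0057 and -0.0798). That gives no sign of pairing by number, which 3 libraries per group cannot exclude. A replicate block gave 2905 genes and 4 members, without PDIA3. The cause of each change was not tested. Intervals reflect 3 libraries per group, and DERL3 is limited by counts of at most 7.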

Other observations

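ERSE-bearing genes outside the members were looked at after their values were seen. Of 10 tested ones, 3 were called higher and none lower, against 9.77% higher among all tested genes, with a median log2 fold change of 0.15. The uncalled ones were NLRP4 (0.62), ZNF17 (0.15), ALG12 (0.15), EIF2A (0.02), FICD (-0.0045), TMEM120A (-0.20) and TRIM5 (-0.21). NLRP4 averaged only 0.66 CPM in shTRIM21 and 0.42 CPM in shControl cells, with a standard error of 0.40. ZNF17 averaged 2.93 and 2.63 CPM, with a standard error of 0.25. TMEM120A lay lower in shTRIM21 libraries without overlap. ALG12 shares its promoter region with the member CRELD2, and ERO1B is also among the further foldases counted above. SERP1, a small protein tied to the translocon, averaged 137 ± 1.81 CPM in shTRIM21 and 97.1 ± 17.2 CPM in shControl cells (SD, n = 3 each), with a log2 fold change of 0.50 ± 0.09 (standard error; edgeR adjusted p = 0.00122). ERO1B, an oxidase that recharges protein disulphide isomerase, had 0.42 ± 0.13 (edgeR adjusted p = 0.0314), and SYNPO, an actin-binding protein, 0.96 ± 0.09 (edgeR adjusted p = 5.82e-06). Of 11 tested genes outside the members with ERSE-II, 2 were called higher (NUCB1 and PLS3) and 3 lower (CNKSR1, NAV2 and SHCBP1), with a median of -0.04.

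EIF2AK3-DT, a transcript annotated beside and overlapping the PERK gene, had 32, 28 and 21 counts in shTRIM21 libraries, against 3, 5 and 2 counts in shControl libraries (log2 fold change 2.92 ± 0.49, edgeR adjusted p = 0.000708), while EIF2AK3 had -0.09. It was chosen after its values were seen, and its counts are few.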
